A study of Mus musculus with 8 samples.

Results

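The olfactory receptor genes of the array were examined as a measure of background in a T cell fraction. The 230 genes are those whose platform annotation gives 1 symbol that starts with Olfr and a digit, out of 6986 genes in all. Only Olfr743 had 2 probe sets, and the one with the higher mean over the 8 arrays was taken. RNA came from CD4+CD25+ lymphocytes of the para-aortic lymph nodes of mice at day 9.5 of pregnancy and was read on Affymetrix Mouse Gene 2.0 ST arrays. The groups were 4 arrays labelled IL10-/- and 4 labelled IL10+/+, each made from a pool of RNA of 2 to 4 mice. C57BL/6 animals served as IL10+/+. Mice with the IL10-/- genotype, a germline loss of interleukin 10, had been backcrossed through the same colony. Only for the IL10-/- mice do the protocols state an antibiotic, oxytetracycline at 2 mg/ml in the drinking water, so genotype and antibiotic cannot be told apart.

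The targeted gene did not follow the labels in a simple way. Il10 read 9.35, 8.65, 9.42 and 9.25 in the arrays labelled IL10-/-, replicates 1 to 4, and 8.27, 8.51, 8.14 and 7.50 in those labelled IL10+/+. Its signal was thus higher in every array labelled IL10-/-. Where its probes lie relative to the disrupted part of the gene is not given in the material at hand, so this signal neither checks nor contradicts the labels, and every direction below rests on the labels alone.

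Olfactory receptors are G protein-coupled receptors that sense odorants at the cilia of olfactory neurons in the nose. They form the largest gene family of the mouse, most have their coding sequence in a single exon, and they lie in clusters of close relatives on many chromosomes. A mature olfactory neuron expresses a single receptor allele, and most other cells, T cells among them, are thought to keep the family silent. On an array, a probe set for a silent gene still returns a value, so such a family shows what the platform reads where little target is thought to be present. Whether any receptor was transcribed in these cells was not measured independently, and probe sets of close relatives may read the same RNA.

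The measured part of the family comes from the chromosomes that the value table covers. Of the 230 genes, 81 lie on chromosome 11, 66 on chromosome 10, 39 on chromosome 14, 28 on chromosome 1, 13 on chromosome 13 and 3 on chromosome 15, and 4 are pseudogenes. The table as a whole is as narrow, since 99.6% of the placed genes lie on chromosomes 1 and 10 to 15. Replicate 2 of IL10-/- and replicate 4 of IL10+/+ had the narrowest spread of values, with interquartile ranges over the other 6756 genes of 2.13 and 2.16, against 2.30 to 2.56 in the remaining 6 arrays. Of 30 listed T cell genes 9 were measured, all of them above the highest olfactory receptor gene in all 8 arrays. Foxp3, Cd4 and Il2ra were not analysed here, so the regulatory T cell label could be set only against genes such as Ctla4 and Ikzf2.

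The sequence around the annotated start is shared in kind across the family and was not used to choose the members. RefSeq windows of 300 bases on GRCm38.p6, 250 before to 50 after the annotated start, were found for 192 of the 230 genes (193 windows). The windows below belong to the members with the highest and the lowest mean value, Olfr1360 and Olfr747, and to Olfr1383 and Olfr1513, which were high together in a single array. Capitals mark matches to the motifs named in the next paragraph and an ATG that begins exactly at the annotated start.

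Olfr1360, chr13:21674931-21675230, minus strand: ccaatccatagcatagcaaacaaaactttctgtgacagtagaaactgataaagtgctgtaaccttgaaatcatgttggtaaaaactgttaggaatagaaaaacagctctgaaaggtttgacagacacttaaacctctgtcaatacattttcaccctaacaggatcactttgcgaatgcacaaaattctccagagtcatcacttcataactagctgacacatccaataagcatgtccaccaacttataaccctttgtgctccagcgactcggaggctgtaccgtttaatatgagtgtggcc
Olfr747, chr14:50681596-50681895, minus strand: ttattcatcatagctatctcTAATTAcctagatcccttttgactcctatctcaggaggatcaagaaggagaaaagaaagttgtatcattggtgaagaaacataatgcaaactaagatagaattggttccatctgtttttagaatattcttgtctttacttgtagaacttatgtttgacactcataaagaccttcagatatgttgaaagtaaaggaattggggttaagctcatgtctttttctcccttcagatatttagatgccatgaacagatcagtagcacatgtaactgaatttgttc
Olfr1383, chr11:49523475-49523774, plus strand: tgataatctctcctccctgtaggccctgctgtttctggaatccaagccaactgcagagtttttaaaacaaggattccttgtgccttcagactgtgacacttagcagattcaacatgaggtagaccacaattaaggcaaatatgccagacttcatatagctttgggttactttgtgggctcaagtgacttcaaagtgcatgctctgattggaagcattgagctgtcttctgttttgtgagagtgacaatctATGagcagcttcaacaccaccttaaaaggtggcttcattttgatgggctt
Olfr1513, chr14:52349995-52350294, minus strand: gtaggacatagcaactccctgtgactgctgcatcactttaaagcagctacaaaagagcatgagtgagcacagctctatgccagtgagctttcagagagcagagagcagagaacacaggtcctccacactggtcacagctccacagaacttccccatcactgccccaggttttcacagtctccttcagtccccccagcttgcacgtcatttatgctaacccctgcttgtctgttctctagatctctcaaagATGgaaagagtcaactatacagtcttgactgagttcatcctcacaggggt

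The windows of the family were poor in G and C. Their median G and C content was 38.0% (quartiles 32.7% and 42.3%), against 57.7% in 6262 windows of the other genes tested. No CpG was present in 31.6% of the receptor windows, as in that of Olfr747, and in 2.38% of the others. The TATA box motif TATAAA, on either strand, was found in 67 receptor windows (34.7%) and in 13.6% of all 32851 RefSeq windows. The homeodomain core TAATTA was found in 32 (16.6%) against 5.29% of all windows, and is the only motif in the 4 windows shown. The core CCCNNGGG bound by EBF factors, the Olf-1 proteins of olfactory neurons, was found in 4 (2.07%) against 13.7%. These are matches of letters in windows of unequal base composition, not sites. An ATG began exactly at the annotated start in 67.4% of receptor windows, as for Olfr1383 and Olfr1513, against 2.46% of the windows of other genes. Those gene models therefore begin at an ATG, and their windows may not hold the promoter.

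**Figure D1:**
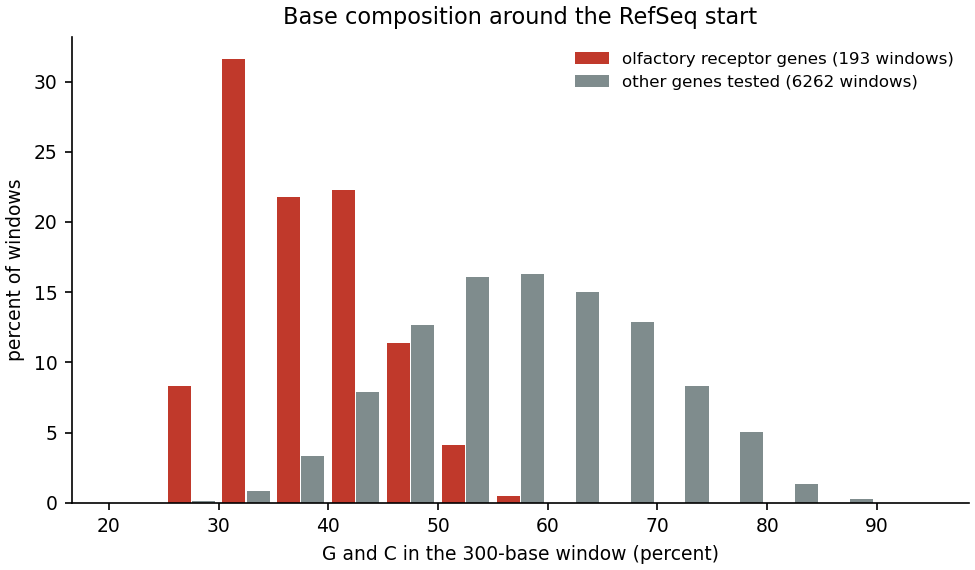
Share of 300-base RefSeq windows (vertical axis, percent) by their G and C content (horizontal axis, percent, in steps of 5) for the olfactory receptor genes and the other genes tested. The receptor windows centre on a median of 38.0% and the other windows on 57.7%.

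The olfactory receptor genes lay well below the rest of the table in every array, but their values covered a wide range. The values are log2 expression values per probe set, so a step of 1 is a doubling of signal. The median over the 230 genes was 4.95, 5.11, 5.05 and 4.93 in IL10-/- replicates 1 to 4 and 5.00, 4.98, 4.98 and 5.10 in IL10+/+ replicates 1 to 4. The group means of these medians were 5.01 ± 0.09 and 5.02 ± 0.06 (SD, n = 4 each), and the groups overlapped. The median of the other 6756 genes lay between 7.04 and 7.17. Within an array, the 5th percentile of the receptor genes was 2.83 to 2.92, the 95th percentile 6.97 to 7.26 and the highest member 8.19 to 8.62. The 95th percentile of the family thus lay close to the median of the other genes in every array.

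**Figure D2:**
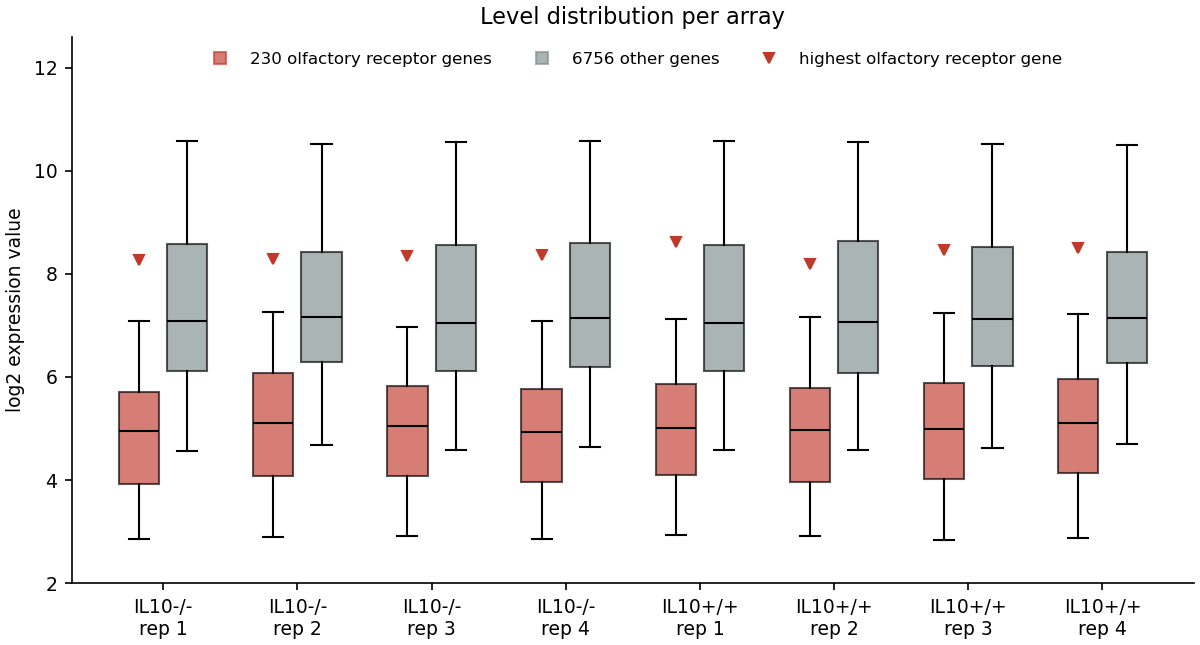
Level distribution in each of the 8 arrays for the olfactory receptor genes and all other genes. The vertical axis is the log2 expression value, boxes span the quartiles with the median as a line, whiskers run from the 5th to the 95th percentile, and triangles mark the highest receptor gene. The receptor medians sit between 4.93 and 5.11 in all arrays, and the whisker tops between 6.97 and 7.26 lie near the medians of the other genes.

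Receptor genes differed more from each other than a typical one did between arrays, although Olfr1383 had an SD of 1.16 over the 8 arrays. Differences between genes held 97.0% of the variance of the 1840 receptor values, differences between arrays 0.172% and the remainder 2.86%. The standard deviation (SD) of the 230 gene means was 1.29, whereas the median SD of a gene within a group was 0.20. Taken across the receptor genes, where a gene is no replicate, Pearson's r of one array with another ran from 0.935 to 0.985 over the 28 pairs of arrays. Across the other genes it ran from 0.974 to 0.993. The pattern of levels among the receptor genes therefore largely repeated from pool to pool. It is a pattern of probe set signals, not of transcript amounts.

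Olfr1360 on chromosome 13 had the highest mean, 8.35. It read 8.27, 8.25, 8.35 and 8.36 in IL10-/- replicates 1 to 4 and 8.62, 8.19, 8.27 and 8.46 in IL10+/+ replicates 1 to 4. The groups overlapped, and the 8 values spanned 0.43. It was followed by Olfr1382 (8.09), Olfr318, Olfr1411 (7.95), Olfr1373 (7.90), Olfr282 (7.88), Olfr417 (7.77) and Olfr749 (7.61). Neighbours in that order differed by less than the SD of either gene over the 8 arrays (0.14 to 0.37), except Olfr1360 over Olfr1382. The first 7 of these genes and Olfr279, the 11th by mean (7.27), lay above the 95th percentile of the family in all 8 arrays. Olfr749 did so in 7, since it read 6.97 in IL10+/+ replicate 2. In all, 8 genes were above that limit in every array, 9 in some and 213 in 0 arrays.

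Olfr747 on chromosome 14 had the lowest mean, 2.53. It read 2.78, 2.55, 2.37 and 2.39 in IL10-/- replicates 1 to 4 and 2.47, 2.76, 2.49 and 2.44 in IL10+/+ replicates 1 to 4. These values lay close to the lowest value of any probe set in an array, 2.07 to 2.25. Olfr777 (2.71), Olfr813 (2.73) and Olfr732 (2.74) came next and differed from each other by less than their SD over the 8 arrays. In all, 56 genes (24.3%) had a mean under 4, 59 lay from 4 to 5, 66 from 5 to 6, 34 from 6 to 7 and 15 at 7 or more.

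**Figure D3:**
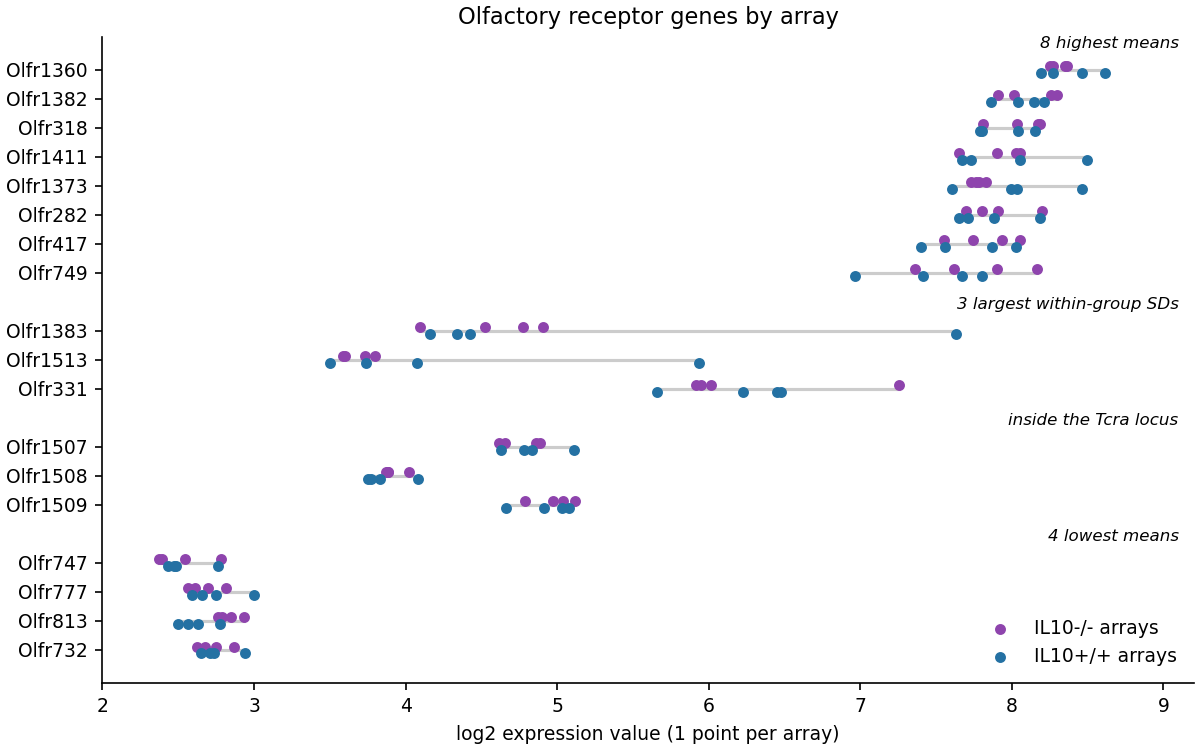
Log2 expression value (horizontal axis) of named olfactory receptor genes, with 1 point per array and a grey line over the range of the 8 arrays. The 8 genes with the highest means stay between 6.97 and 8.62 and the 4 with the lowest between 2.37 and 3.00, while Olfr1383, Olfr1513 and Olfr331 each have 1 array far above the rest.

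Levels of the receptor genes differed between locations and moved to a small degree with the base composition of the window. The median level was 4.48 on chromosome 10, 4.80 on chromosome 14, 5.26 on chromosome 13, 5.33 on chromosome 11 and 5.64 on chromosome 1, with members under 3 on each of these 5 chromosomes. The 3 genes on chromosome 15 had a median of 7.27, and the lowest of them was at 6.02. The 134 genes with receptor genes on both sides had a median of 4.92, the 75 with a receptor gene on 1 side 5.17, and the 21 with none 5.82. Over the 192 genes with a window, the level had a Pearson's r of 0.32 with the window's G and C content (Spearman's rho 0.31). The median content was 34.3% in the 49 genes with a level under 4 and 41.3% in the 41 genes at 6 or more. These are descriptions across genes that share arrays, and the base composition of the probes themselves was not analysed here.

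Receptor genes inside the T cell receptor alpha locus, which T cells transcribe, did not read above the rest of the family. Olfr1507, Olfr1508 and Olfr1509 on chromosome 14 overlap the RefSeq model of that locus, Tcra. The overlap was taken from coordinates alone, without regard to strand. Whether the probe sets of these genes could read Tcra transcripts was therefore not tested. Olfr1509 read 4.97, 5.12, 5.04 and 4.79 in IL10-/- replicates 1 to 4 and 4.66, 4.91, 5.03 and 5.08 in IL10+/+ replicates 1 to 4. Olfr1507 had a mean of 4.80 and Olfr1508 of 3.89. All 3 thus lay at or below the family median of 5.00, and their differences between groups, IL10-/- minus IL10+/+, were -0.08 for Olfr1507, 0.05 for Olfr1508 and 0.06 for Olfr1509. The 11 genes that overlap any other gene model had a median of 4.55, against 5.07 for the other 219. Beyond the 230 genes, a probe set assigned to both Olfr56 and Ifi47, an interferon-inducible GTPase gene, read 7.43, and 6 probe sets assigned to several receptor genes at once read between 3.40 and 6.93.

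The median of the family was shifted up slightly in the 2 arrays with the narrowest spread, where 64.8% of the receptor genes lay above their own mean. The median deviation of a receptor gene from its own mean over the 8 arrays was 0.08 in IL10-/- replicate 2 and 0.07 in IL10+/+ replicate 4, against -0.08 to 0.00 in the other 6 arrays. IL10-/- replicate 2 was the highest of the 8 arrays for 55 of the 230 genes (23.9%) and IL10+/+ replicate 4 for 43 (18.7%), whereas IL10-/- replicate 1 was the highest for 4 (1.74%). The 3210 other genes with a mean under 7 deviated in the same way in these 2 arrays, by 0.10 in both. The 1262 other genes with a mean of 9 or more deviated by -0.07 in both. Low values were raised and high values lowered there, which is the narrower range of these arrays seen gene by gene. The 2 arrays are in different groups.

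**Figure D4:**
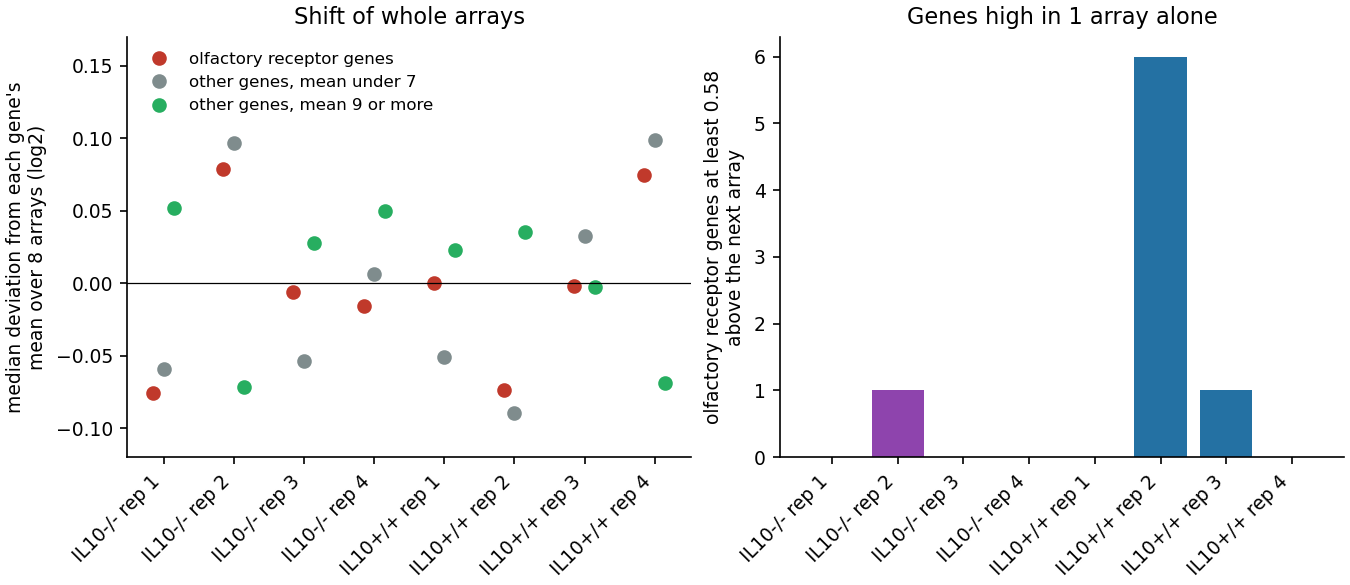
Left, the median deviation from each gene's own mean over 8 arrays (vertical axis, log2) in each array for the receptor genes and for other genes with a low or a high mean. IL10-/- replicate 2 and IL10+/+ replicate 4 are raised at low levels and lowered at high levels. Right, the number of receptor genes whose value in an array exceeded the next highest array by at least 0.58, which is 6 for IL10+/+ replicate 2, 1 each for IL10-/- replicate 2 and IL10+/+ replicate 3, and 0 elsewhere.

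Between the genotypes, no olfactory receptor gene passed the test. The arrays labelled IL10-/- were compared with those labelled IL10+/+ by limma, a linear model per gene fitted over all 6986 genes, with p-values adjusted over all of them by the Benjamini-Hochberg method at a threshold of 0.05. Of the 230 receptor genes 0 passed, where 2 of all genes (0.0286%) did. The smallest adjusted p of a receptor gene was 0.624. At an unadjusted limma p under 0.05 there were 5 receptor genes (2.17%), 2 higher and 3 lower in IL10-/-, against 4.78% of all genes. The 2 groups did not overlap for 4 receptor genes (1.74%), against 2.92% of all genes. A difference of at least 0.58 in size was reached by 1 receptor gene (0.435%), against 1.07% of all genes. In each case the share of the family was close to or below that of the table. The order of the shares without overlap depended on the arrays used, since without IL10-/- replicate 3 it was 5.65% of the family against 4.74% of all genes, and without IL10+/+ replicate 1 it was 5.65% against 5.37%.

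The differences themselves show how far 4 pools differed from 4 others in genes with no expected role in T cells. The 230 differences, IL10-/- minus IL10+/+, had a median of -0.03, an SD of 0.16 and quartiles of -0.11 and 0.06. Their median size was 0.09, and the 95th percentile of the size was 0.32, a change of 1.25-fold. For the other 6756 genes the median was 0.00, the SD 0.18 and the 95th percentile of the size 0.34. Of the receptor genes 96 were higher and 134 lower in IL10-/-, a split of 41.7% higher that fell to 29.6% under quantile normalization. That median difference of -0.03 was smaller than the SD of the array medians within either group (0.09 and 0.06). This SD describes single arrays and is not the standard error of a difference, so the comparison does not test the median difference.

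At matched levels the within-group SD of receptor genes was close to that of other genes, while the spread of the differences was wider in some level classes and narrower in others. The median within-group SD was 0.18 for receptor genes and 0.16 for other genes with a mean under 4, 0.20 and 0.18 from 4 to 5, 0.20 and 0.17 from 5 to 6, and 0.20 and 0.17 from 6 to 7. At 7 or more, up to 9, it was 0.19 for the 15 receptor genes and 0.20 for 2284 other genes. The SD of the differences was 0.14 and 0.17 under 4, 0.18 and 0.15 from 4 to 5, 0.17 and 0.15 from 5 to 6, 0.12 and 0.15 from 6 to 7, and 0.12 and 0.19 from 7 to 9. Among the receptor genes the within-group SD thus stayed between 0.18 and 0.20 from the lowest to the highest levels.

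**Figure D5:**
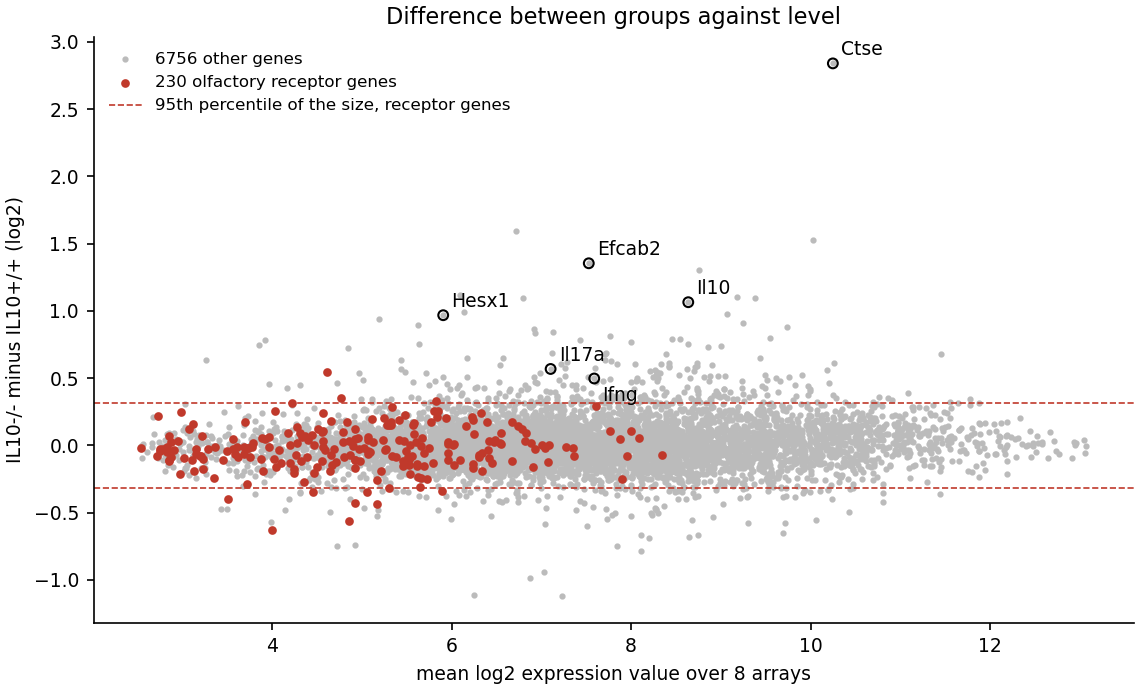
IL10-/- minus IL10+/+ difference (vertical axis, log2) against the mean log2 expression value over 8 arrays (horizontal axis) for the 230 receptor genes and the 6756 other genes, with 1 point per gene. Dashed lines mark the 95th percentile of the size of the receptor differences, 0.32, and Ctse, Efcab2, Il10 and Hesx1 lie beyond every receptor gene.

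Olfr1385, in the chromosome 11 cluster, had the smallest p of the family. It read 4.85, 5.01, 5.07 and 4.61 in IL10-/- replicates 1 to 4 and 4.28, 4.13, 4.34 and 4.61 in IL10+/+ replicates 1 to 4. All IL10-/- arrays lay above all IL10+/+ arrays, although IL10-/- replicate 4 and IL10+/+ replicate 4 differed by less than 0.01. The difference was 0.54 (SE 0.14), with a limma adjusted p of 0.624. Olfr1377, also on chromosome 11, read 5.23, 5.05, 5.24 and 5.05 in IL10-/- and 5.38, 5.46, 5.41 and 5.59 in IL10+/+. It lay lower in every IL10-/- array, with a difference of -0.32 (SE 0.10, limma adjusted p = 0.742). The other members without overlap were Olfr49 at -0.20 and Olfr394 at 0.19. For each of the 4 the exact two-sided permutation test over 70 assignments gave 0.0286, the smallest p it allows, and they were picked here for that separation.

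The remaining members with the smallest p differed by less than 0.4. Olfr10, Olfr20, Olfr1416 and Olfr813 were higher in IL10-/- by 0.32, 0.28, 0.25 and 0.22, and their groups overlapped. Olfr782, Olfr799 and Olfr218 were lower by 0.35, 0.24 and 0.24 on the log2 scale, also with overlap. Their limma adjusted p-values ran from 0.873 to 0.999. Olfr813 is also among the 4 genes with the lowest means, so its difference of 0.22 was read near the floor of the array.

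The largest deviations in the family were in single arrays. Olfr1383, on chromosome 11, read 7.63 in IL10+/+ replicate 2 and between 4.09 and 4.90 in the other 7 arrays, a gap to the next array of 2.73, or 6.63-fold. Olfr1513, on chromosome 14 and with no receptor gene on either side, read 5.93 in the same array and between 3.50 and 4.08 in the others, a gap of 1.85, or 3.62-fold. These were the only receptor genes with 1 array at least 1 above the next. Without IL10+/+ replicate 2 the difference of Olfr1383 changed from -0.57 to 0.26 and that of Olfr1513 from -0.63 to -0.09. The largest difference in the family, that of Olfr1513, thus rested on 1 pool.

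With a gap of at least 0.58, 8 receptor genes (3.48%) stood high in a single array, and 6 of these were in IL10+/+ replicate 2. They were Olfr1383, Olfr1513, Olfr429 (5.87 against at most 5.08), Olfr1392 (3.74 against at most 3.07), Olfr1413 (6.53 against at most 5.89) and Olfr8 (5.43 against at most 4.81). They come from 4 chromosomes. The others were Olfr331, at 7.26 in IL10-/- replicate 2 against at most 6.47, and Olfr775 in IL10+/+ replicate 3. Among the other 6756 genes 85 (1.26%) had such a gap, 16 of them in IL10+/+ replicate 2 and 29 in IL10+/+ replicate 1. No receptor gene stood low in a single array by as much, whereas 126 other genes (1.87%) did. Of these, 39 were low in IL10-/- replicate 2 and 42 in IL10+/+ replicate 4, the arrays of narrow spread. The receptor genes and the other genes also differ in level. The 8 receptor genes were singled out after their values were seen, and neither the source of the signal nor its sequence was tested.

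The range of the receptor genes sets a level below which a value of another gene resembles that of an olfactory receptor. On average over the 8 arrays 49.1% ± 1.9 (SD) of the 6756 other genes exceeded the family's 95th percentile, and 24.1% to 31.6% exceeded its highest member. In IL10-/- the share above the 95th percentile was 50.2% ± 2.1 and in IL10+/+ 47.9% ± 0.45 (SD, n = 4 each), with overlap. A value depends on its probe set, so a gene inside that range is not shown to be silent and a gene above it is not quantified by it. The 9 measured T cell genes had means from 9.50 for Themis to 12.65 for the pan-leukocyte phosphatase gene Ptprc. Of 10 genes used in every cell, 8 lay above every receptor gene in all arrays, whereas the ribosomal protein genes Rps7 and Rps15 had means of 8.32 and 7.17.

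Several cytokine genes were read inside the range of the family. Il22 had a mean of 2.67, with 229 of the 230 receptor genes at or above it. Il17a had a mean of 7.10, Il17f of 7.21, Csf2 of 7.35 and Ifng of 7.59, and between 8 and 11 receptor genes were as high as each. Ifng exceeded the family's 95th percentile in 8 of 8 arrays, Csf2 in 6, and Il17a and Il17f in 4 each, while none of these 4 exceeded the highest receptor gene in any array. Hesx1, a homeobox repressor, had a mean of 5.90, with 54 receptor genes as high. Il10 itself had a mean of 8.64, above every receptor gene mean, and exceeded the highest receptor gene in 5 arrays. Ctse, which encodes cathepsin E, exceeded it in all 8.

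Of the other 6756 genes, 57 (0.844%) had a difference larger in size than the largest of any receptor gene, 0.63. That limit is the difference of Olfr1513, which was -0.09 without IL10+/+ replicate 2, so it rested on 1 pool. Of the 57 genes 44 were higher and 13 lower in IL10-/-, and 2 passed limma. Size alone did not carry a gene past the limma threshold. Lrr1 at 1.59, Cd24a at 1.53, Gzmb at 1.30 and Gm7889 at -1.12 had limma adjusted p-values from 0.65 to 0.873. They were named after their values were seen, and their unadjusted p-values are not given here. The genes listed for comparison are given next. The difference of Ctse, 2.84, was 8.97 times the 95th percentile of the receptor sizes, that of Efcab2, 1.35, was 4.28 times, that of Il10, 1.06, was 3.36 times and that of Hesx1, 0.97, was 3.06 times. For these 4 genes 0 of 230 receptor genes had a difference as large. Ctse and Efcab2 are the 2 genes that passed limma, with adjusted p-values of 8.33e-07 and 0.0201, and Il10 and Hesx1 did not (0.405 and 0.0752). Hesx1 did pass with limma's trend and robust options and without IL10-/- replicate 3. Efcab2 no longer passed with the replicate number as a block, with arrays centred on their median, with array weights, by an equal-variance test, without any one of 6 of the 8 arrays or without both arrays of narrow spread, whereas Ctse passed in every alternative run. The difference of Il17a, 0.57, was exceeded by 1 receptor gene and that of Ifng, 0.50, by 3, namely Olfr1513, Olfr1383 and Olfr1385. Ikzf2 and Ctla4 encode a transcription factor and an inhibitory receptor of regulatory T cells. Their differences, -0.19 and -0.11, were matched or exceeded by 42 and 105 receptor genes. The means of Ctse (10.25), Ctla4 (11.27), Ikzf2 (11.44) and Il10 (8.64) lay above every receptor gene mean. The family thus gives no spread of differences at the levels of those genes. From 7 to 9 the 95th percentile of the size was 0.26 for receptor genes and 0.39 for other genes.

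Other families of sensory and hair proteins had medians below the 7.10 of the other 6756 genes, at levels that differed between families. The 44 vomeronasal receptor genes, which serve pheromone sensing, had a median level of 3.60 (range 2.56 to 7.33), the 15 trace amine receptor genes one of 4.95 (2.78 to 7.09) and the 22 keratin-associated protein genes of hair 5.83 (3.70 to 8.20). The SD of their differences between groups was 0.16, 0.13 and 0.14, and 0 genes of these families passed limma, with 1 (2.27%), 0 and 2 (9.09%) at an unadjusted p under 0.05, against 4.78% of all genes. Above the 95th percentile of the receptor genes in all 8 arrays were 0 vomeronasal, 0 trace amine and 4 keratin-associated genes (18.2%). Of the receptor genes 8 (3.48%) were. The difference between families in level was not tested.

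Of the genes that olfactory neurons use to signal, develop and detoxify odorants, few were measured. Of 53 listed genes 6 were in the table, 0 passed limma in either direction, 0 had an unadjusted p under 0.05, and the median difference was 0.05 against 0.00 over all genes. Ric8b, which promotes the activity of the olfactory G protein and is also used outside the nose, had a mean of 8.66 and exceeded the 95th percentile of the receptor genes in 8 of 8 arrays. The sodium-calcium exchanger gene Slc24a4 had a mean of 6.92 and did so in 2 arrays. The factor genes Ebf1 and Ebf2 had means of 6.38 and 6.59, Neurog1 one of 6.18 and the carbonyl reductase gene Cbr2 one of 6.23, and none of these 4 exceeded it in any array. Ebf1 also marks B cells. Of the 10 listed markers that define an olfactory neuron, such as Omp and Gnal, 0 were analysed here.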

How the data were processed

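The log2 expression values deposited by the authors were normalized in Partek by the RMA background step, Partek's correction for GC content and a mean over probes, per the labels' design text, and Affymetrix Expression Console is also named per the submitters' processing notes. Software versions and the probe sets' genome build: not given in the sources used here. The table held 16378 probe sets, of which the platform annotation gave 7358 1 gene symbol, 456 several and 8564 none. Symbols were updated through Entrez identifiers to the RefSeq table of GRCm38.p6 (7310 matched), and the probe set with the highest mean was kept for the 284 genes with several, leaving 6986 genes with no filter on level. Array depth has no read count, so the 4 arrays per group limit the precision.

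Groups were compared with limma 3.58.1 (lmFit, eBayes) in R 4.3.3 over all genes, with Benjamini-Hochberg adjustment, a procedure tested on simulated data. The members, the gene lists and the rule for named genes were chosen with earlier results of these data known. The rule named the 8 highest and 4 lowest means, up to 5 genes per direction with the smallest p, the 3 largest within-group SDs, all called members, members whose probe sets disagree in sign, listed comparison genes, and of each list the called genes and up to 4 others. Outside it, and chosen after values were seen, are the members high in a single array, Olfr394, the members in the Tcra locus, Cbr2, Neurog1, Themis, Rps7, Rps15, Olfr279 and the other genes named for a large difference. Alternatives were other normalizations, variance models, a filter, probe set and member rules, the replicate number as a block, and each array left out.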

Additional observations from a re-analysis of the deposited data

Results flagged for a closer look

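Within groups of 4 arrays, 60 sets of values were examined for an array far from the others, by Dixon's gap test at the 95% level, which chance passes in about 1 in 20 sets. In 4 of the sets an array stood apart. Olfr1383 read 7.63 in IL10+/+ replicate 2 and 4.16 to 4.43 in the other IL10+/+ arrays. Olfr331 read 7.26 in IL10-/- replicate 2 and 5.91 to 6.01 in the other IL10-/- arrays. Olfr747 read 2.76 in IL10+/+ replicate 2 against 2.44 to 2.49. Olfr1508, inside the Tcra model, read 4.02 in IL10-/- replicate 3 against 3.87 to 3.89. The last 2 gaps are small in size, and Olfr747 read 2.78 in IL10-/- replicate 1. Of the 4, only Olfr1383 and Olfr331 spanned more than 1 over the 8 arrays, and both had been named for their large SD within a group.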

How the results depend on the processing

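No olfactory receptor gene passed limma in any of the 17 alternatives. Of those tested, 4 to 14 had an unadjusted p under 0.05, 1.74% to 6.09% of the family against 3.87% to 6.43% of all genes. The exception was a filter that kept 11 of them, where 0 did. The share of the family exceeded that of all genes by the equal-variance test, 4.78% against 4.68%. It also did so without both arrays of narrow spread, 6.09% against 5.48%. In the other alternatives it was lower. The count over all genes was 1 (Ctse) with the replicate block, with arrays centred on their median, with array weights, by the equal-variance test and without both arrays of narrow spread (IL10-/- replicate 2 and IL10+/+ replicate 4, an alternative chosen after seeing the data), and 1 to 4 with each array left out. It was 4 without IL10-/- replicate 3, 2 without IL10-/- replicate 4 and 1 without any of the other 6 arrays. With limma's trend and robust options it was 3, Hesx1 being added to Ctse and Efcab2. The family's median levels and its median difference moved by less than the SD of the array medians in all alternatives run. The SD of the differences, 0.158 in the main run, was 0.155 to 0.196 with each array left out. The 95th percentile of their size, 0.317 in the main run, was 0.307 to 0.384. Among these runs both were largest without IL10+/+ replicate 4. The median difference ran from -0.06 to 0.01 with each array left out and was -0.07 under quantile normalization. The count of receptor genes without overlap was 6 without IL10+/+ replicate 3, 8 without IL10-/- replicate 4 and 11 to 13 without any other array, where 4.61% to 6.84% of all genes did not overlap, and 21 without both arrays of narrow spread, where 10.7% did, since fewer arrays overlap less. The share of other genes above the family's limit was 62.0% with the 90th and 32.8% with the 99th percentile, by construction. The 10 single differences followed kept their sign, and their smallest limma adjusted p was 0.337. They had been picked for a small p in these same data, so a kept sign is no check on them. Same-numbered arrays of the 2 groups had correlations of deviations of -0.32 to 0.05. The 2 arrays of narrow spread, with different numbers, had one of 0.46. The labels state no pairing, and these correlations cannot show whether same-numbered pools were handled together.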
